A study of Mus musculus with 12 samples.

Results

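The 36 genes described here belong to the amino acid stress response of the mouse, together with the cytosolic tRNA synthetases and amino acid transporters that this response is known to control. They were taken by gene symbol from a list that names genes by function and was chosen with earlier results of these data known. Counts of them set beside the share of all genes are therefore descriptions and no independent test. They come from 24058 genes with a symbol used once in the deposited tables. Their mRNA was sequenced in the immortalised mouse microglial line BV2 after the amount of the myeloid transcription factor PU.1, encoded by Spi1, had been lowered or raised. In the Spi1 knockdown group a short hairpin RNA against Spi1 was expressed transiently, and its control was a scrambled hairpin. In the Spi1 overexpression group mouse Spi1 was expressed transiently from a cDNA, and its control was an empty construct. The 4 groups hold 3 libraries each, all from BV2 cells sorted by flow cytometry, grown in DMEM with serum and given no other treatment. All of the cells are of 1 line, and no label says that replicate libraries are separate cultures. The p-values therefore describe the spread between libraries, which may be technical. The knockdown and overexpression experiments share no control library.

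The amino acid stress response is a branch of the integrated stress response. When amino acids run short, uncharged tRNAs activate the kinase GCN2, which phosphorylates the initiation factor eIF2. General translation then falls while the mRNA of the transcription factor ATF4 is translated better. ATF4 binds DNA with C/EBP partners and raises genes that make, import and charge amino acids. In macrophages and microglia the same arm also answers stress of the endoplasmic reticulum and of mitochondria.

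Several of the genes carry the composite ATF4 and C/EBP core, TGATGNAA, close to their start. Promoters from RefSeq on build GRCm38.p6, spanning 250 bases before to 50 bases after the annotated start, were found for 29 of the 36 genes. The core was present on either strand in 11 of the 29 (37.9%), against 1219 of 27025 genes with a promoter in the table (4.51%). A site is shown for each of the 11 genes, and the rest of the 29 had no match in this window. Each is written on the strand of its gene, with the core or its reverse complement in capitals.

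Trib3, chr2:152344029-152344056, minus strand: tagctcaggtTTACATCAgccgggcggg
Chac1, chr2:119351039-119351066, plus strand: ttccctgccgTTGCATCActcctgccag
Vldlr, chr19:27216810-27216837, plus strand: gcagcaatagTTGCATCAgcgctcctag
Pycr1, chr11:120643834-120643861, minus strand: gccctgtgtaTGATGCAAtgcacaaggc
Asns, chr6:7693215-7693242, minus strand: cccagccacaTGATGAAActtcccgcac
Slc1a4, chr11:20332700-20332727, minus strand: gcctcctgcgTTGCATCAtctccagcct
Aars, chr8:111033841-111033868, plus strand: gcgggtcactTTTCATCAgagcgctctg
Gars, chr6:55037961-55037988, plus strand: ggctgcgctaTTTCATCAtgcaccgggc
Tars, chr15:11399656-11399683, minus strand: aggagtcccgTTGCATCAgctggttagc
Yars, chr4:129189896-129189923, plus strand: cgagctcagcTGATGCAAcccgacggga
Iars, chr13:49682127-49682154, plus strand: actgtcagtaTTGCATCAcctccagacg

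In 7 of these 11 windows the core reads TGATGCAA or its complement TTGCATCA. Their positions relative to the start run from -200 in Vldlr to 22 in Trib3, with the core ahead of the start in some genes and just after it in others. A core of the motif bound by PU.1, GAGGAAGT, was searched in the same way and was in 0 of the 29 promoters, against 997 of the 27025 genes (3.69%). With so few promoters and so low a share, this count does not set the genes apart from all genes. Other forms of that motif were not searched. A match is a description of the letters in this window, and binding was not measured here.

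The libraries held 22.3 to 33.1 megareads by the read totals that the deposited values imply. Values are FPKM, a gene's reads divided by its length and by the read total of the library. Spi1 averaged 48.5 ± 5.32 FPKM in the knockdown libraries and 165 ± 5.41 FPKM in the scrambled controls, and 239 ± 42.3 FPKM in the overexpression libraries and 135 ± 20.8 FPKM in the empty controls (SD, n = 3 each). Its log2 fold change was -1.75 after knockdown (adjusted p = 0.000697 in limma) and 0.81 after overexpression, where the adjusted p was 0.99993 without the replicate block, the shared library number, and 0.0357 with it. Defining markers of macrophages and microglia summed to 1845 to 2045 FPKM in knockdown, 2156 to 2289 FPKM in scrambled, 1921 to 2152 FPKM in overexpression and 1926 to 2180 FPKM in empty libraries, while neuronal markers summed to at most 0.262 FPKM. A list of 4 astrocyte markers, with Aqp4 at 0, summed to 38.4 to 48.6 FPKM in knockdown, 58.6 to 66.2 FPKM in scrambled, 43.3 to 64.3 FPKM in overexpression and 53.1 to 72.6 FPKM in empty libraries, and its part in the results was not tested. As these are bulk libraries, fewer cells of a kind and less RNA per cell cannot be told apart.

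Of the 36 genes, 35 had a read in at least 1 library. The very low density lipoprotein receptor gene Vldlr was listed at 0 in all 12 libraries. The cationic amino acid transporter gene Slc7a3 lay between 0.0176 and 0.189 FPKM, which is 1 to 13 reads per library. Neither passed the filter of a mean of at least 1 FPKM, and the glutathione-degrading enzyme gene Chac1 passed it in the overexpression experiment but not in the knockdown experiment. This left 33 genes tested after knockdown and 34 after overexpression.

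After Spi1 knockdown the stress regulators and the serine phosphatase gene Psph were lower, while the folate enzyme Shmt1 and the synthetase Eprs were higher. With limma on log2(FPKM + 1) and Benjamini-Hochberg adjustment over all 11214 tested genes, 11 of the 33 genes fell at an adjusted p under 0.05, where 8.86% of all genes fell. The genes that rose were Shmt1 and Eprs, 2 of 33, where 17.4% of all genes rose. The median log2 fold change over the 33 was -0.12, and over all tested genes it was 0.07. By role, 3 of 3 transcription factors, 2 of 3 feedback and stress effectors, 1 of 3 serine synthesis enzymes, 1 of 5 transporters and 4 of 12 tRNA synthetases fell. None of the 4 folate one-carbon enzymes and none of the 3 proline and asparagine enzymes fell.

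**Figure D1:**
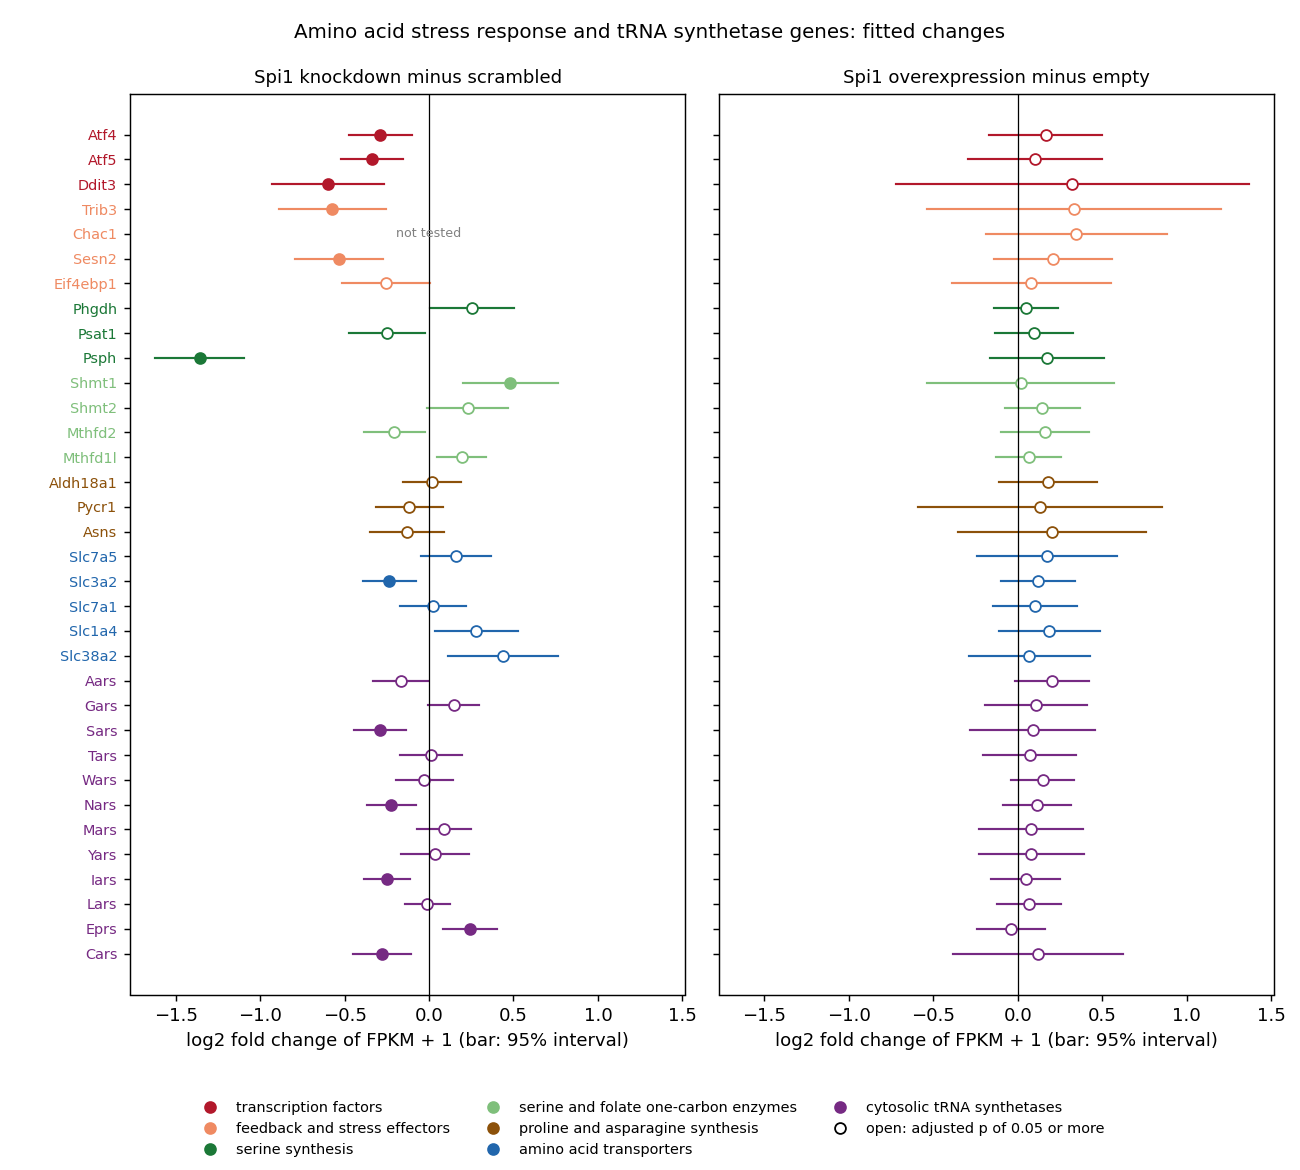
Fitted log2 fold change of FPKM + 1 for each tested gene (points, coloured by role) with its 95% interval (bars), after Spi1 knockdown against scrambled control on the left and Spi1 overexpression against empty control on the right. Filled points passed an adjusted p of 0.05. After knockdown they lie mostly left of 0, with Psph farthest at -1.36, while after overexpression 33 of 34 points lie right of 0 and none is filled.

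These calls rest on few libraries. Libraries with the same number deviated together, and with the number as a block 15 of the 33 genes were lower and 7 higher, where 14.7% and 30.6% of all genes were. With median-of-ratios scaling, which moved all genes down by 0.07 at the median, 14 genes were called lower and 1 higher, where 13% and 11.1% of all genes were. Without knockdown library 1 or 2 the count of lower genes was 2, without scrambled library 2 it was 5, and without any other library it was 7; the count of higher genes was 0 to 3. Psph and Sesn2 passed in each of those 6 fits, with highest adjusted p-values of 0.00787 and 0.0441 in limma, and with both libraries numbered 2 left out they were the 2 genes called lower, where 1.8% of all genes were, beside 0 called higher, where 2.2% were. Of the other 11 called genes, each lost its call in at least 2 of the 6 fits, with the highest adjusted p between 0.0613 for Sars and 0.122 for Eprs.

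All 3 transcription factors of the response were lower after knockdown. Atf4, the central activator, had 126, 126 and 148 FPKM in knockdown libraries, against 169, 160 and 160 FPKM in scrambled libraries. Every knockdown library lay below every scrambled one, though knockdown library 3 differed by only -0.11 on the log2 scale from its numbered partner. The log2 fold change was -0.29 (SE 0.0795), with an adjusted p of 0.0353 in limma. Atf5, a relative of Atf4 that is likewise controlled at translation, had 17.1, 16.5 and 16.5 FPKM in knockdown libraries, against 23.8, 20.6 and 19.8 FPKM in scrambled libraries. The groups did not overlap, and the log2 fold change was -0.34 (SE 0.0788, adjusted p = 0.0213, limma). Ddit3 encodes CHOP, a factor downstream of ATF4 that is linked to cell death under lasting stress. It had 63.2, 64.3 and 76.0 FPKM in knockdown libraries, against 128, 93.5 and 91.0 FPKM in scrambled libraries. The groups did not overlap, the highest value was scrambled library 1, and the log2 fold change was -0.60 (SE 0.142, adjusted p = 0.0219, limma).

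The effectors that feed back on the response moved with its transcription factors. Trib3 encodes a pseudokinase that binds and restrains ATF4 and AKT. It had 10.4, 9.10 and 13.3 FPKM in knockdown libraries, against 18.6, 15.1 and 16.1 FPKM in scrambled libraries. All 3 knockdown libraries were lower, with a log2 fold change of -0.57 (SE 0.136, adjusted p = 0.0223, limma). Sesn2 encodes Sestrin 2, a leucine sensor that holds back the growth kinase complex mTORC1. It had 16.4, 13.4 and 16.1 FPKM in knockdown libraries, against 25.2, 19.7 and 22.9 FPKM in scrambled libraries. The 3 pairs differed by -0.59, -0.52 and -0.48 on the log2 scale, a narrow range, and the log2 fold change was -0.53 (SE 0.112, adjusted p = 0.0152, limma).

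The other effectors gave no call in the unblocked fit. Eif4ebp1 encodes 4E-BP1, a repressor of cap-dependent translation. It had 103, 85.4 and 103 FPKM in knockdown libraries, against 128, 101 and 118 FPKM in scrambled libraries. The groups overlapped, since scrambled library 2 was below knockdown libraries 1 and 3. The log2 fold change was -0.25 (SE 0.111, adjusted p = 0.133, limma), and with the replicate block the adjusted p was 0.0124. Chac1, at 0.383, 0.740 and 0.983 FPKM in knockdown libraries and 1.24, 0.700 and 1.54 FPKM in scrambled libraries, was too low to test.

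**Figure D2:**
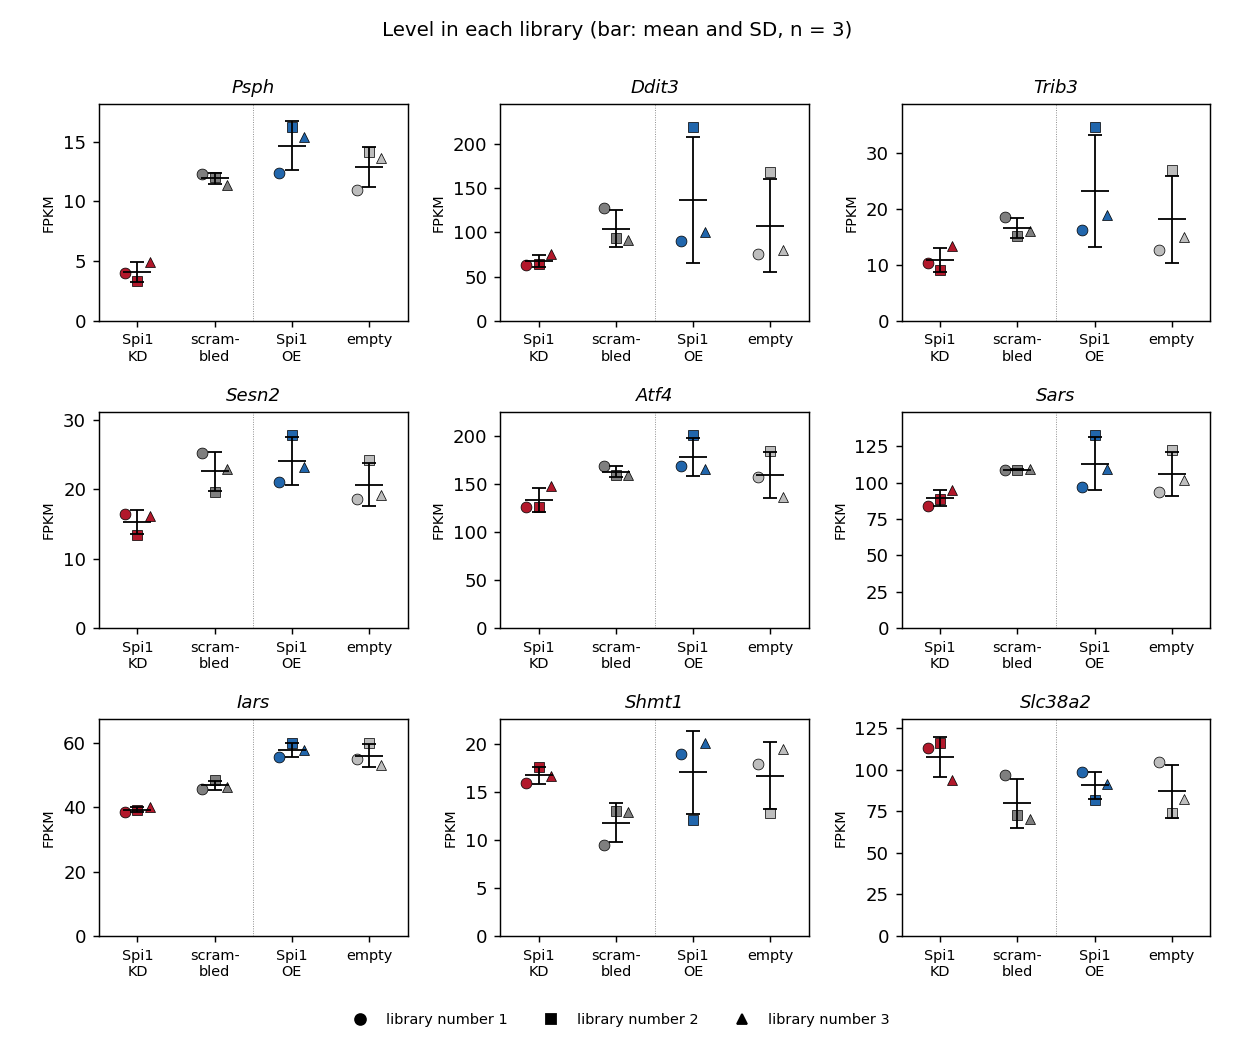
FPKM of 9 of the genes in each of the 12 libraries, with Spi1 knockdown (KD) left of scrambled control and Spi1 overexpression (OE) left of empty control. Points are libraries with the shape giving the library number, and the bars are the mean and SD of 3 libraries. Psph is at 3.34 to 4.94 FPKM in knockdown libraries and above 10 FPKM in all the others, and the square of number 2 stands above its group for Ddit3 and Trib3 in both groups of the overexpression experiment.

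Of the 3 enzymes of serine synthesis from a glycolytic intermediate, Psph fell and the others did not pass the test without the block. Psph encodes phosphoserine phosphatase, which carries out the last step. It had 3.97, 3.34 and 4.94 FPKM in knockdown libraries, against 12.3, 12.1 and 11.4 FPKM in scrambled libraries. The values come from 162, 137 and 251 reads in knockdown libraries and 487, 456 and 427 reads in scrambled libraries, and no knockdown library came near a scrambled one. The log2 fold change was -1.36 (SE 0.113, adjusted p = 0.00143, limma), the largest fall among the 33 genes. Exons of Psph overlap those of its neighbour Cct6a, a chaperonin subunit gene, over 452 bases (10.4% of its exon length in GENCODE M21), and the library kit does not mark strand. Cct6a had 138, 164 and 154 FPKM in knockdown libraries, against 117, 134 and 130 FPKM in scrambled libraries, the opposite direction, with a log2 fold change of 0.26 (adjusted p = 0.0633 in limma).

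Phgdh, which encodes the first and committing enzyme of the route, was not lower. It had 134, 146 and 154 FPKM in knockdown libraries, against 104, 126 and 135 FPKM in scrambled libraries. Each knockdown library exceeded its numbered partner although the groups overlapped, and the log2 fold change was 0.25 (SE 0.106, adjusted p = 0.118, limma; 0.0181 with the replicate block). Psat1 encodes the aminotransferase of the middle step and had 81.1, 86.6 and 94.7 FPKM in knockdown libraries, against 92.2, 108 and 113 FPKM in scrambled libraries. All 3 pairs were lower in knockdown while the groups overlapped, with a log2 fold change of -0.25 (SE 0.0961, adjusted p = 0.0959, limma; 0.0137 with the block). In all 3 pairs Phgdh was above and Psph below its control.

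Of the 4 enzymes that pass the carbon of serine to folate, Shmt1 rose and the others did not pass the test without the block. Shmt1, the cytosolic serine hydroxymethyltransferase, had 15.9, 17.6 and 16.7 FPKM in knockdown libraries, against 9.43, 13.0 and 12.9 FPKM in scrambled libraries. The groups did not overlap, and the log2 fold change was 0.48 (SE 0.120, adjusted p = 0.0256, limma). Shmt2, its mitochondrial counterpart, had 64.5, 69.5 and 69.9 FPKM in knockdown libraries, against 49.4, 60.9 and 64.3 FPKM in scrambled libraries. Knockdown library 1 was only just above scrambled library 3, and the log2 fold change was 0.23 (SE 0.103, adjusted p = 0.142, limma; 0.0396 with the block). Mthfd1l, which releases formate in mitochondria, had 16.2, 16.1 and 16.3 FPKM in knockdown libraries, against 13.2, 14.6 and 14.4 FPKM in scrambled libraries. Its knockdown values were nearly equal and all above the controls, with a log2 fold change of 0.19 (SE 0.0624, adjusted p = 0.0586, limma; 0.0300 with the block). With both the block and median-of-ratios scaling, Shmt2 and Mthfd1l did not pass (adjusted p = 0.102 and 0.103, limma). Mthfd2, the mitochondrial methylenetetrahydrofolate dehydrogenase of proliferating cells, had 56.7, 59.6 and 64.3 FPKM in knockdown libraries, against 64.4, 71.1 and 73.2 FPKM in scrambled libraries. The groups met without overlapping, and the log2 fold change was -0.21 (SE 0.0777, adjusted p = 0.0908, limma; 0.0174 with the block).

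Genes for proline and asparagine synthesis gave no call with or without the block. Asns, the asparagine synthetase gene and a classic ATF4 target, had 44.1, 48.8 and 56.5 FPKM in knockdown libraries, against 56.1, 54.0 and 52.7 FPKM in scrambled libraries. The groups overlapped, as knockdown library 3 was the highest of the 6, and the log2 fold change was -0.13 (SE 0.0940, adjusted p = 0.341, limma). Pycr1, the last enzyme of proline synthesis, was at 1.04 to 1.44 FPKM in knockdown libraries and 1.27 to 1.51 FPKM in scrambled libraries. Aldh18a1, which starts that route, was at 56.6 to 65.0 FPKM in knockdown libraries and 57.8 to 61.6 FPKM in scrambled libraries. Their log2 fold changes were -0.12 and 0.02, and that of Aldh18a1 turned below 0 with median-of-ratios scaling.

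Of the paired subunits of the large neutral amino acid transporter, the heavy chain fell and the light chain did not pass the test. Slc3a2 encodes the heavy chain, CD98, which carries several light chains to the membrane. It had 70.7, 75.6 and 78.1 FPKM in knockdown libraries, against 85.9, 92.4 and 86.4 FPKM in scrambled libraries. The groups did not overlap, and the log2 fold change was -0.24 (SE 0.0669, adjusted p = 0.0389, limma). Slc7a5 encodes the light chain LAT1, which carries leucine, and had 30.1, 33.0 and 28.6 FPKM in knockdown libraries, against 24.5, 29.3 and 28.1 FPKM in scrambled libraries. The groups overlapped, and the log2 fold change was 0.16 (SE 0.0883, adjusted p = 0.215, limma). The difference between the subunits was not tested.

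The sodium-dependent carriers of small neutral amino acids did not pass the test without the block. Slc38a2, the carrier SNAT2, had 113, 116 and 94.0 FPKM in knockdown libraries, against 96.5, 72.5 and 70.1 FPKM in scrambled libraries. Knockdown library 3 was below scrambled library 1, so the groups overlapped, and the log2 fold change was 0.44 (SE 0.138, adjusted p = 0.0536, limma; 0.0183 with the block). Slc1a4, the carrier ASCT1, had 6.99, 5.77 and 5.68 FPKM in knockdown libraries, against 5.64, 4.56 and 4.47 FPKM in scrambled libraries. The 3 pairs differed by 0.27, 0.28 and 0.29 on the log2 scale, and the log2 fold change was 0.28 (SE 0.105, adjusted p = 0.0896, limma; 0.00740 with the block). Slc7a1, a carrier of arginine and lysine, was at 22.1 to 25.9 FPKM in knockdown libraries and 22.3 to 25.7 FPKM in scrambled libraries, with a log2 fold change of 0.02 that turned to -0.06 with median-of-ratios scaling.

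Of the 12 cytosolic tRNA synthetases 4 fell, Eprs rose and 7 did not pass the unblocked test. Each enzyme loads its amino acid, given by the first letter of the symbol, onto the matching tRNAs, and Eprs does so for both glutamate and proline. Sars, for serine, had 84.1, 88.5 and 94.9 FPKM in knockdown libraries, against 109, 109 and 110 FPKM in scrambled libraries. Nars, for asparagine, had 131, 136 and 136 FPKM in knockdown libraries, against 163, 159 and 149 FPKM in scrambled libraries. Neither gene overlapped between the groups, and the log2 fold changes were -0.29 for Sars (SE 0.0655, adjusted p = 0.0194) and -0.22 for Nars (SE 0.0622, adjusted p = 0.0370), both in limma. Iars, for isoleucine, had 38.4, 39.2 and 39.9 FPKM in knockdown libraries, against 45.8, 48.5 and 46.1 FPKM in scrambled libraries. Cars, for cysteine, had 19.9, 19.8 and 22.6 FPKM in knockdown libraries, against 26.5, 25.2 and 24.3 FPKM in scrambled libraries. Again the groups stood apart, with log2 fold changes of -0.25 for Iars (SE 0.0583, adjusted p = 0.0207) and -0.28 for Cars (SE 0.0737, adjusted p = 0.0320), both in limma.

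Eprs encodes the joint glutamyl and prolyl enzyme, a large member of the multi-synthetase complex. It had 109, 123 and 121 FPKM in knockdown libraries, against 96.2, 102 and 100 FPKM in scrambled libraries. All 3 knockdown libraries were above all 3 controls, and the log2 fold change was 0.24 (SE 0.0686, adjusted p = 0.0389, limma). With median-of-ratios scaling the adjusted p was 0.109. Aars, for alanine, had 89.4, 98.5 and 96.8 FPKM in knockdown libraries, against 106, 113 and 102 FPKM in scrambled libraries. These groups did not overlap either, and the log2 fold change was -0.17 (SE 0.0705, adjusted p = 0.117, limma; 0.0499 with the block). Its exons overlap those of Exosc6 over 1403 bases (15.1% of its exon length in GENCODE M21), so its reads and those of Exosc6 cannot be fully told apart without strand. In Atf5, Shmt1, Shmt2, Mars, Yars and Cars such overlaps with other genes cover between 0.5% and 4.74%.

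The remaining synthetases, Gars, Tars, Wars, Mars, Yars and Lars, for glycine, threonine, tryptophan, methionine, tyrosine and leucine, gave no call in either fit. Their log2 fold changes ran from -0.03 in Wars to 0.15 in Gars, and those of Tars and Yars turned below 0 with median-of-ratios scaling. Wars had 38.9, 43.3 and 41.0 FPKM in knockdown libraries, against 39.4, 44.0 and 42.4 FPKM in scrambled libraries, so each library was close to its partner. Gars, at 75.0, 81.5 and 83.3 FPKM in knockdown libraries and 71.0, 72.0 and 73.2 FPKM in scrambled libraries, did not overlap between groups but missed the threshold (adjusted p = 0.131 in limma, 0.0518 with the block). Of the 11 genes with the ATF4 core in their promoter, Trib3 and Iars fell, Aars and Slc1a4 passed with the block in opposite directions, and Asns, Gars, Tars, Yars and Pycr1 gave no call in either fit.

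Counting separation alone, all 3 knockdown libraries lay below all 3 scrambled libraries for 13 of the 33 genes, where 15.1% of all tested genes did so. They lay above for 6 genes, where 30.3% of all genes did so. In 8 of the 33 genes every knockdown library was below every control library of both experiments, where 6.81% of 11112 genes tested in both were: Atf5, Sesn2, Psph, Mthfd2, Slc3a2, Nars, Iars and Cars.

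The control groups of the experiments were set side by side as a description. The mean of log2(FPKM + 1) was lower in scrambled than in empty libraries for 24 of the 33 genes, where 59.5% of all genes were lower, with a median difference of -0.15 where all genes had -0.04; this was not tested, since each table holds its own experiment. Knockdown libraries set against the empty controls were lower for 30 of the 33, where 43.1% of all genes were lower, with a median difference of -0.16 where all genes had 0.03. Psph differed from the empty controls by -1.45 in knockdown and by -0.10 in scrambled libraries. Shmt1, higher after knockdown than in its own controls, differed from the empty controls by 0.02 in knockdown and by -0.46 in scrambled libraries.

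Genes for eIF2, its exchange factor eIF2B, and the kinases and phosphatase subunits that set its phosphorylation were measured beside the targets of the response. Of 16 such genes, with partners of the kinases included, 2 fell and 4 rose after knockdown, where 8.86% of all genes fell and 17.4% rose. Scaling by median of ratios gave 3 and 1, where 13% and 11.1% of all genes were called. The replicate block gave 2 and 7, where 14.7% and 30.6% were. Without the libraries numbered 2 the counts were 1 and 0, where 1.8% and 2.2% were. Eif2b2, the beta subunit of eIF2B, averaged 31.8 ± 0.826 FPKM in knockdown libraries and 53.5 ± 0.277 FPKM in scrambled libraries (SD, n = 3 each), which is a log2 fold change of -0.73 (adjusted p = 0.00115 in limma). Eif2ak4, which encodes the amino acid sensor GCN2, averaged 14.3 ± 1.31 FPKM in knockdown libraries and 20.8 ± 0.401 FPKM in scrambled libraries, a log2 fold change of -0.52 (adjusted p = 0.00519 in limma). Eif2b3, the gamma subunit of eIF2B, had a log2 fold change of 0.35 (adjusted p = 0.0280 in limma).

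Among 15 other textbook ATF4 targets and partners, 5 fell and 1 rose, where 8.86% of all genes fell and 17.4% rose. With the libraries numbered 2 left out the counts were 1 and 0, where 1.8% and 2.2% of all genes were called. Slc7a11, the cystine carrier xCT, averaged 10.4 ± 1.19 FPKM in knockdown libraries and 22.6 ± 4.71 FPKM in scrambled libraries (SD, n = 3 each), which is a log2 fold change of -1.04 (adjusted p = 0.00502 in limma). Nupr1, a stress-induced chromatin protein, fell with a log2 fold change of -0.54, and Stc2, which encodes stanniocalcin 2, rose with 0.44 (adjusted p = 0.00675 and 0.00462, limma). Of 12 genes of the unfolded protein response outside the ATF4 arm, 2 fell and 1 rose, to be read against the same shares. With the block 2 fell and 4 rose, where 14.7% and 30.6% of all genes did. Xbp1 and Dnajb9 had log2 fold changes of -0.47 and -0.45, and Edem1 of 0.48 (adjusted p = 0.00418, 0.00800 and 0.00462, limma).

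Other synthetases and enzymes of the same pathways gave mixed counts, to be read against the 17.4% of all genes that rose and the 8.86% that fell (30.6% and 14.7% with the block). Of 8 further cytosolic synthetases, Rars, for arginine, fell by 0.20 on the log2 scale and Vars, for valine, rose by 0.39 (adjusted p = 0.0395 and 0.0443, limma). Of 17 mitochondrial synthetases 7 rose and 0 fell, with a median log2 fold change of 0.30, with the replicate block 13 rose, and without the libraries numbered 2 none of the 17 was called. Sars2, for serine in mitochondria, averaged 7.39 ± 0.467 FPKM in knockdown libraries and 5.36 ± 0.379 FPKM in scrambled libraries (SD, n = 3 each). Its log2 fold change was 0.40, beside -0.29 for the cytosolic Sars. Of 13 other folate enzymes 3 rose and 2 fell (5 and 3 with the block). Mtrr, which encodes methionine synthase reductase, fell with a log2 fold change of -0.41, and Mthfd1, the trifunctional cytosolic folate enzyme, rose with 0.47 (adjusted p = 0.00880 and 0.00995, limma). Of 12 other amino acid transporters 1 rose and 4 fell, and of 4 other proline enzymes Oat rose by 0.34. Markers of G2/M, taken as a measure of cycling cells, rose in 12 of 12 cases, with a median log2 fold change of 1.02, and in 4 of 12 without the libraries numbered 2. The part of these markers in the calls above was not tested.

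After Spi1 overexpression nearly all of these genes lay slightly above their controls, and none passed the test. In limma 0 of 34 genes had an adjusted p under 0.05, where 0% of 11217 genes did, and at an unadjusted p under 0.05 the count was also 0 of 34, where 0.642% of all genes were higher and 0.446% lower. The replicate block called 13 genes of 11217 (0.116%) and 0 of the 34, with the lowest adjusted p, 0.0839, for Trib3. The fitted log2 change was above 0 for 33 of 34 genes, where 42.3% of all genes were above 0. The median was 0.12, and over all genes it was -0.01. Within numbered pairs, 29 of 34 genes were higher in 3 of 3, where 14% of all genes were, and Eprs was lower in 3 of 3, where 23.8% of all genes were. At an unadjusted p under 0.05 with the block, 17 of 34 genes were higher, where 5.4% of all genes were, and 0 were lower, where 8.66% were. The 34 genes share the same 6 libraries, so their directions are not separate observations.

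**Figure D3:**
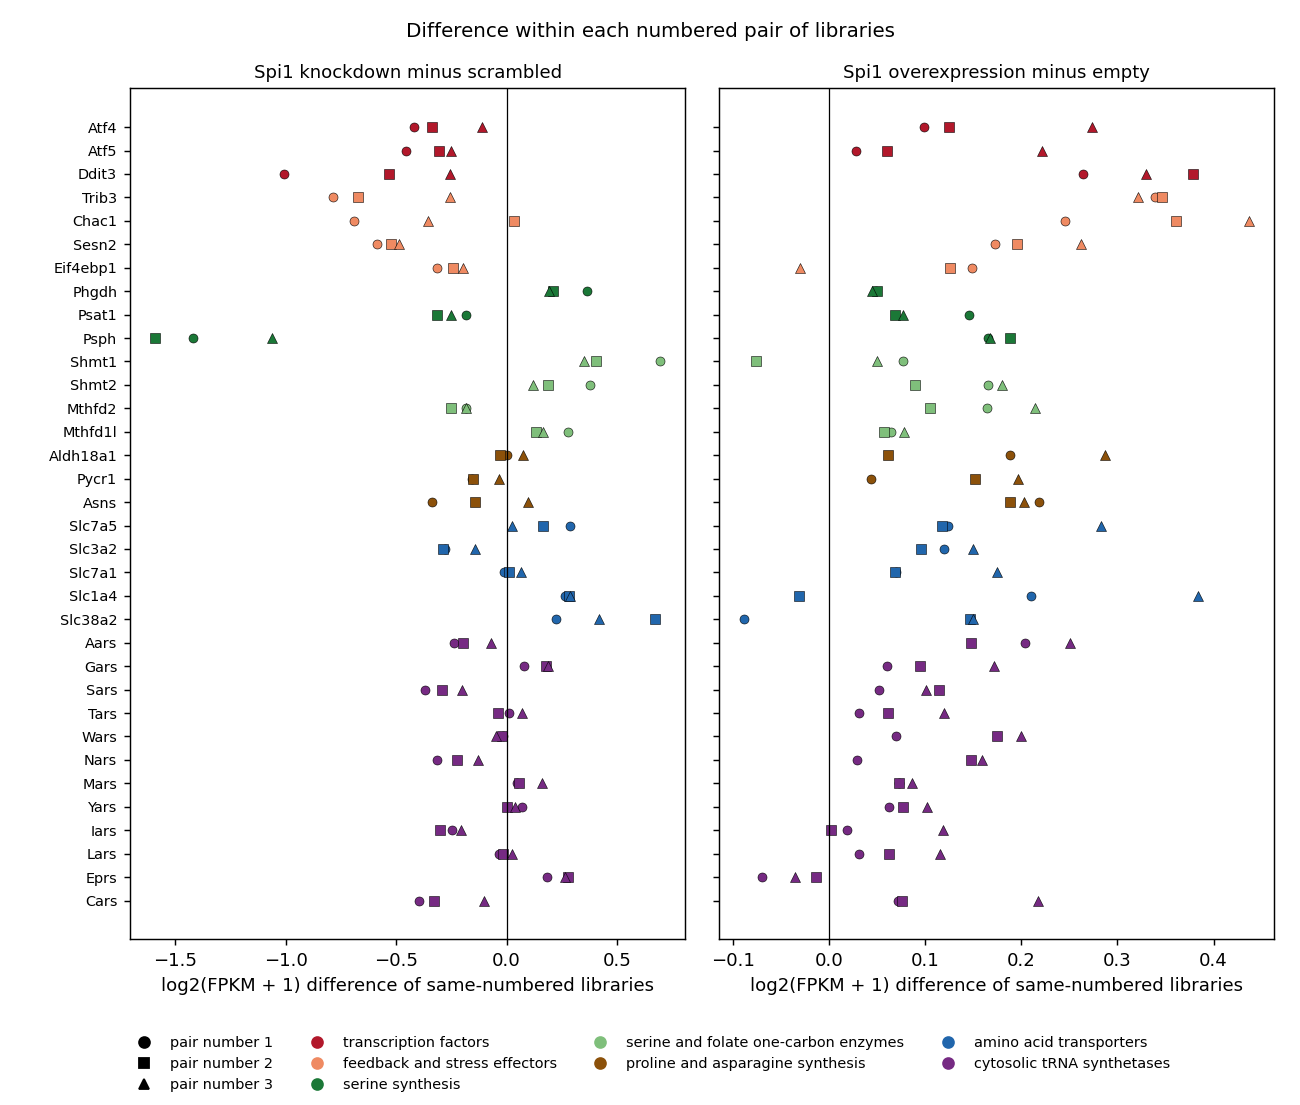
Difference of log2(FPKM + 1) between libraries of the same number, knockdown minus scrambled on the left and overexpression minus empty on the right, for each tested gene and Chac1 (symbols give the pair number, colours the role as in the plot of fitted changes). The horizontal scales differ between the panels. On the left Psph stands at -1.59 to -1.06, and on the right nearly all symbols lie between 0 and 0.44.

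In Trib3, Ddit3 and Chac1 the changes after overexpression were smaller than the range among libraries of 1 group. Trib3 had 16.2, 34.7 and 18.9 FPKM in overexpression libraries, against 12.6, 27.1 and 14.9 FPKM in empty libraries. Library 2 stood above libraries 1 and 3 in both groups, so the groups overlapped, while the pairs differed by 0.34, 0.35 and 0.32 on the log2 scale. The log2 fold change was 0.34 (SE 0.362 in limma without the block, 0.0374 with it). Ddit3 had 90.7, 219 and 100 FPKM in overexpression libraries, against 75.4, 169 and 79.6 FPKM in empty libraries. All 3 pairs were higher, by 0.26, 0.38 and 0.33, with a log2 fold change of 0.32 (SE 0.434, adjusted p = 0.113 with the block, limma). Chac1 had 1.13, 2.30 and 1.31 FPKM in overexpression libraries, against 0.799, 1.57 and 0.710 FPKM in empty libraries, with overlapping groups and a log2 fold change of 0.35.

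The regulators with smaller spread showed the same order within pairs. Atf4 had 168, 201 and 165 FPKM in overexpression libraries, against 157, 184 and 137 FPKM in empty libraries. Atf5 had 19.3, 26.0 and 20.8 FPKM in overexpression libraries, against 18.9, 24.9 and 17.7 FPKM in empty libraries. Sesn2 had 21.1, 27.9 and 23.2 FPKM in overexpression libraries, against 18.6, 24.2 and 19.2 FPKM in empty libraries. For each of the 3 genes the groups overlapped and every overexpression library was above its partner, with log2 fold changes of 0.17, 0.10 and 0.21. Psph had 12.4, 16.2 and 15.4 FPKM in overexpression libraries, against 10.9, 14.1 and 13.6 FPKM in empty libraries. Its pairs differed by 0.17, 0.19 and 0.17, and the log2 fold change was 0.17 (SE 0.141 without the block, adjusted p = 0.177 with it, limma).

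Among the metabolic genes, Asns had 59.7, 94.3 and 67.7 FPKM in overexpression libraries, against 51.2, 82.7 and 58.7 FPKM in empty libraries. The groups overlapped, and the pairs were higher by 0.22, 0.19 and 0.20. Pycr1 had 1.39, 3.41 and 1.69 FPKM in overexpression libraries, against 1.32, 2.97 and 1.34 FPKM in empty libraries, again with library 2 far above the others in both groups. Shmt1, which rose after knockdown, had 18.9, 12.1 and 20.1 FPKM in overexpression libraries, against 17.9, 12.8 and 19.4 FPKM in empty libraries. It was not ordered by pair, and its log2 fold change was 0.02.

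For the other genes with a call after knockdown, in either fit, overexpression and empty libraries overlapped except for Aars. Eif4ebp1 had 101, 148 and 114 FPKM in overexpression libraries, against 90.8, 135 and 116 FPKM in empty libraries. Psat1 had 135, 150 and 136 FPKM in overexpression libraries, against 122, 143 and 129 FPKM in empty libraries. Library 2 was the highest of its group in both, and the log2 fold changes were 0.08 and 0.10. Phgdh had 146, 154 and 157 FPKM in overexpression libraries, against 141, 149 and 152 FPKM in empty libraries. Its 3 pairs each differed by 0.05, and the log2 fold change was 0.05.

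The mitochondrial folate enzymes lay above their partners in every pair, with no call. Shmt2 had 92.4, 85.4 and 99.5 FPKM in overexpression libraries, against 82.2, 80.2 and 87.8 FPKM in empty libraries. Mthfd2 had 86.6, 97.3 and 86.3 FPKM in overexpression libraries, against 77.1, 90.4 and 74.3 FPKM in empty libraries. Mthfd1l had 17.2, 15.8 and 16.6 FPKM in overexpression libraries, against 16.4, 15.1 and 15.7 FPKM in empty libraries. Overlap between the groups came from library 2, low for Shmt2 and Mthfd1l and high for Mthfd2, and the log2 fold changes were 0.14, 0.16 and 0.07.

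Transporter genes differed less evenly. Slc3a2 had 99.9, 96.0 and 89.8 FPKM in overexpression libraries, against 91.9, 89.7 and 80.9 FPKM in empty libraries. It was higher in 3 of 3 pairs, with a log2 fold change of 0.12. Slc1a4 had 7.06, 7.74 and 8.25 FPKM in overexpression libraries, against 5.96, 7.94 and 6.09 FPKM in empty libraries. Slc38a2 had 98.4, 81.8 and 91.4 FPKM in overexpression libraries, against 105, 73.9 and 82.3 FPKM in empty libraries. Each of these carriers was lower in 1 pair, number 2 for Slc1a4 and number 1 for Slc38a2, and the log2 fold changes were 0.19 and 0.07.

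Synthetase genes that fell after knockdown were all slightly above their partners. Sars had 96.9, 133 and 109 FPKM in overexpression libraries, against 93.5, 123 and 102 FPKM in empty libraries. Nars had 147, 166 and 158 FPKM in overexpression libraries, against 144, 150 and 142 FPKM in empty libraries. The log2 fold changes were 0.09 and 0.11. Iars had 55.6, 60.0 and 57.7 FPKM in overexpression libraries, against 54.9, 59.9 and 53.0 FPKM in empty libraries. Cars had 23.8, 36.7 and 29.5 FPKM in overexpression libraries, against 22.6, 34.8 and 25.2 FPKM in empty libraries. The pair numbered 2 of Iars was almost equal, and the log2 fold changes were 0.05 and 0.12. Eprs had 119, 127 and 115 FPKM in overexpression libraries, against 125, 129 and 118 FPKM in empty libraries. This gene, which rose after knockdown, was lower in 3 of 3 pairs, with a log2 fold change of -0.04 that was within the spread between libraries (SE 0.0845).

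Aars had 125, 117 and 113 FPKM in overexpression libraries, against 108, 105 and 94.9 FPKM in empty libraries. Wars had 48.0, 50.4 and 48.7 FPKM in overexpression libraries, against 45.6, 44.5 and 42.3 FPKM in empty libraries. These were the 2 genes of 34 whose overexpression libraries all lay above the empty ones, where 1.66% of all genes did so. Their log2 fold changes were 0.20 (SE 0.0909) for Aars and 0.15 (SE 0.0776) for Wars, with block adjusted p-values of 0.167 and 0.282 in limma.

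Libraries numbered 2 of the overexpression experiment stood apart in these genes, whatever their construct. They were the highest of 3 in both groups for 20 of 34 genes, where 23.6% of all genes were, and the lowest of 3 in both groups for 7 genes, where 45.9% were. Set against the mean of libraries 1 and 3, library 2 was 2.30 times as high in overexpression and 2.17 times in empty libraries for Ddit3, and 2.21 and 2.23 times for Pycr1. The ratios were 1.98 and 1.97 for Trib3, 1.88 and 2.08 for Chac1, and 1.48 and 1.51 for Asns. Shmt1 ran the other way, with 0.62 in overexpression and 0.69 in empty libraries, as did the transporter gene Slc7a5, with 0.72 and 0.77.

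**Figure D4:**
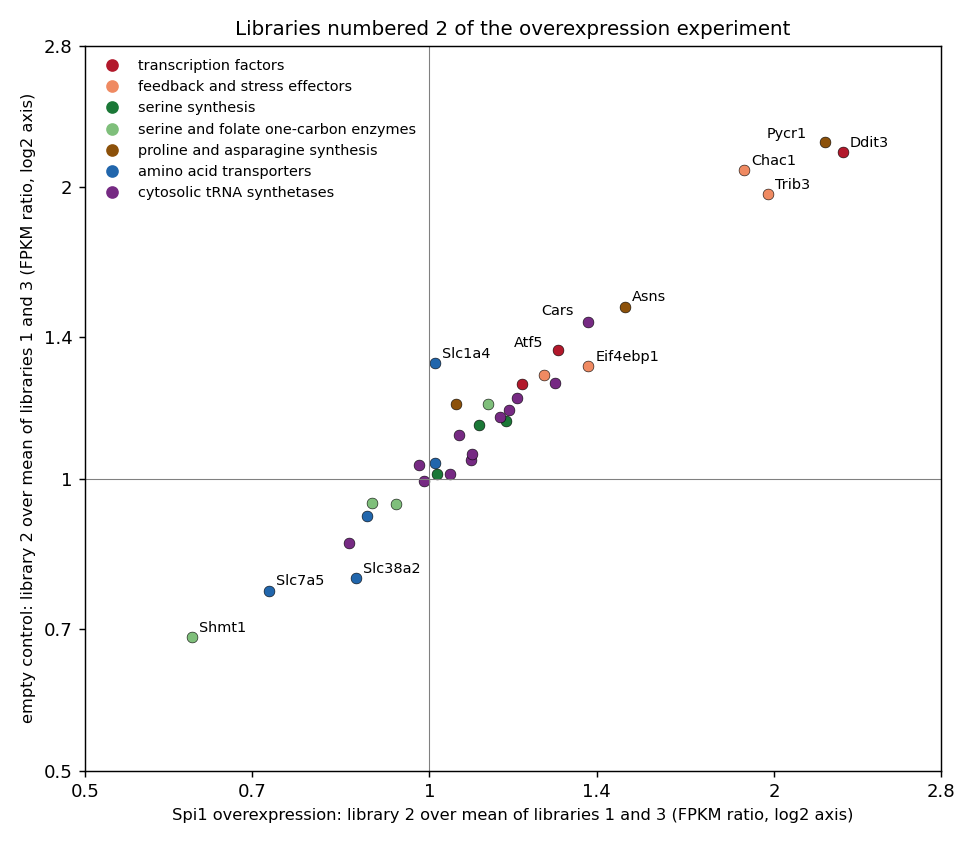
Level in library 2 over the mean of libraries 1 and 3, for each tested gene, in Spi1 overexpression (horizontal) and empty control (vertical), on log2 axes and coloured by role. Points spread along the diagonal, from Shmt1 low on both axes to Ddit3 and Pycr1 above 2 on both.

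In the knockdown experiment the libraries numbered 2 were highest in both groups for 7 of 33 genes, where 24.1% of all genes were, and lowest for 5, where 20.9% were. What set library 2 apart in the overexpression experiment is not stated in the labels and was not tested. The differences of Trib3, Ddit3 and Asns within the pair numbered 2 were close to those of the other pairs.

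The effects of overexpression and knockdown were compared directly as an interaction over the 12 libraries. A value above 0 means that the change after overexpression was higher than the change after knockdown. In limma 1 of 34 genes passed, Psph, where 1.9% of 11224 genes were higher and 2.94% lower (3.02% and 2.25% with median-of-ratios scaling). The difference for Psph was 1.53 (SE 0.191, adjusted p = 0.00277). Its log2 fold change was 0.17 after overexpression and -1.36 after knockdown. Sesn2 followed with 0.74 (SE 0.194, adjusted p = 0.0549, limma), and Nars, Aars and Slc3a2 with 0.33, 0.37 and 0.36 (adjusted p = 0.0721, 0.0831 and 0.0838). The median over the 34 genes was 0.27, and over all genes it was -0.09.

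With the replicate block, 19 of the 34 genes were higher in this difference, where 12.9% of all genes were, and 4 were lower, where 28.6% were. Those higher included all 3 transcription factors, with 0.45 for Atf4, 0.44 for Atf5 and 0.92 for Ddit3 (adjusted p = 0.00849, 0.00545 and 0.00632, limma). Each of the 4 feedback effectors was among them, led by Sesn2 (adjusted p = 0.000450) and Trib3, at 0.91 (adjusted p = 0.00251). The 6 of 12 synthetase genes were Aars, Sars, Wars, Nars, Iars and Cars, with differences of 0.18 in Wars to 0.40 in Cars and adjusted p-values from 0.00359 for Sars to 0.0416 for Wars. The metabolic genes were Psph, Psat1, Mthfd2, Pycr1 and Asns, with 0.35 for Psat1 and 0.37 for Mthfd2 (adjusted p = 0.00411 and 0.00290, limma). Asns was at 0.33 (adjusted p = 0.0418), Pycr1 at 0.25 (0.0218), Chac1 at 0.69 (0.0173) and the transporter gene Slc3a2 at 0.36 (0.00405), all in limma. The 4 lower genes were Phgdh at -0.21, Shmt1 at -0.47, Slc38a2 at -0.37 and Eprs at -0.28, with adjusted p-values of 0.0350, 0.0102, 0.0487 and 0.00641 in limma. With median-of-ratios scaling as well as the block, 22 genes were higher, where 18.7% of all genes were, and 2 were lower, Shmt1 and Eprs, where 18% were. Phgdh and Slc38a2 then had adjusted p-values of 0.170 and 0.124 in limma.

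With the block, fewer genes passed once all libraries numbered 2 were left out, both in this set and over all genes. No other number was left out as a set. With these libraries left out, 2 genes passed without the block, Sesn2 and Psph, where 0.712% of all genes did. With the block 5 passed, Trib3, Chac1, Sesn2, Psph and Mthfd2, where 13.9% of all genes did. All 5 were higher, where 5.13% of all genes were, and 0 were lower, where 8.73% were. All 11 genes that fell after knockdown were higher in 3 of 3 pairs after overexpression. So were 29 of the 34 genes as a whole, where 14% of all genes were. By sign, 14 of 33 genes were above 0 after knockdown, where 63% of all genes were. After overexpression 33 of 34 were above 0, where 42.3% of all genes were. Of the genes outside the set, Eif2b2 and Eif2ak4 passed the unblocked difference at 0.76 and 0.49 (adjusted p = 0.0123 and 0.0260, limma), and Slc7a11 at 1.33 (adjusted p = 0.0261).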

How the data were processed

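RNA of 12 BV2 libraries was read as single 100-base reads from an unstranded TruSeq v2 kit, per the labels' protocols. The authors deposited 1 FPKM table for each experiment, with 24062 entries. STAR 2.5.2a, featureCounts, DESeq2 1.14, CASAVA 1.8.2, bcl2fastq and build mm10 are listed without roles, per the submitters' processing notes; which annotation, lengths and strand rule were used is not given in the sources used here. FPKM was read as the deposited unit from the values, whose steps gave whole reads for 14101 of 14114 genes (gene length whole within 0.01 base for 14100). Those reads were used for depth and for the read counts given for single genes, and not in the fits.

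In R 4.3.3, limma 3.58.1 was fitted to log2(FPKM + 1) of each experiment, without trend, where a gene's mean reached 1 FPKM; the difference of effects used all 12 libraries. FPKM is scaled by each library's total, so a shift in abundant genes moves all others, and log2 fold changes understate those of low genes. Adjusted p-values are Benjamini-Hochberg over all tested genes, threshold 0.05. 4 entries with repeated symbols were left out. The fit of each experiment without the block was tested on simulated data whose libraries varied independently. The block and the difference of effects were not tested in this way.

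Same-numbered libraries deviated together (correlation across genes 0.397, 0.540 and 0.345 in the knockdown experiment, 0.791, 0.845 and 0.513 in the overexpression experiment, limit 0.1), so the number is given as a replicate block where it changes a call; the pairing comes from the titles' numbers. Alternatives were a pseudocount of 0.1, no filter, median-of-ratios scaling, limma trend, the block, and each library left out; leaving out both libraries numbered 2, alone or with the block, and the block with that scaling were chosen after seeing the data, as was the PU.1 core. Genes named with full values are those called in any fit with or without the block; of other lists, up to 3 called genes with the smallest p. A gene that this rule takes and a promoter site are not reported here. The members and lists were chosen with earlier results of these data known.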

Additional observations from a re-analysis of the deposited data

How the results depend on the processing

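Single genes kept their direction and side of the threshold in 251 values after knockdown, 349 after overexpression and 463 for the difference; 72 of the knockdown values lost a call, and 25 and 50 gained one after knockdown and for the difference. With the replicate block the count of all genes called was 5081 after knockdown, 13 after overexpression and 4658 for the difference, and with the block and median-of-ratios scaling 4701, 12 and 4108. Without both libraries numbered 2 the counts were 449 after knockdown and 80 for the difference; with the block as well they were 1268, 5 after overexpression, and 1557. Leaving out 1 library gave 1458 to 2206 genes after knockdown, 0 to 0 after overexpression and 109 to 575 for the difference. Of the 33 genes, those lower after knockdown numbered 2 without both libraries numbered 2, with or without the block, and 2 to 7 without 1 library. Those higher numbered 1 with median-of-ratios scaling, 4 with limma trend, 7 with the block, 5 with block and scaling, 0 without the libraries numbered 2 with or without the block, and 0 to 3 without 1 library. For the difference the 34 genes gave 3 calls with no filter, 23 with the block, 24 with block and scaling, 2 without the libraries numbered 2, 5 with the block as well, and 1 to 2 without 1 library. Signs turned where a gene had no call in that comparison without the block, though Pycr1 passed the difference with the block. Leaving out 1 library, log2 changes ran from -0.0703 to 0.0101 for Wars after knockdown. After overexpression they ran from -0.0157 to 0.244 for Atf5, -0.0736 to 0.694 for Ddit3, -0.0726 to 0.213 for Eif4ebp1, -0.152 to 0.233 for Shmt1, -0.135 to 0.387 for Pycr1, -0.0393 to 0.210 for Slc38a2, -0.0327 to 0.198 for Sars and -0.0295 to 0.296 for Cars. For the difference they ran from -0.158 to 0.0285 for Shmt2, -0.0195 to 0.502 for Pycr1 and -0.181 to 0.0241 for Slc1a4. Shmt2 was 0.00833 with median-of-ratios scaling, with or without the block, and Slc1a4 was 0.0202 without the libraries numbered 2, with or without the block. The cause was not tested. With 3 libraries a group, the spread between libraries limits what overexpression can show, with a median SE of 0.13 for these genes without the block and 0.04 with it.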
